A study of Mus musculus with 9 samples.

Results

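Apoptosis is carried out by a small group of regulators and proteases, and 9 of their genes are described here: *Casp8*, *Casp9*, *Apaf1*, *Bcl2*, *Bcl2l1*, *Mcl1*, *Bcl2l11*, *Bak1* and *Xiap*. They were chosen by name, with earlier results of these data known. All 9 were among the 15184 genes of the deposited table, so none was lost to the filter on low values. PolyA+ RNA was sequenced in 9 libraries from mouse embryonic fibroblasts (MEFs), primary cells grown out of dissociated mid-gestation mouse embryos. Of these, 3 libraries carry the genotype label Empty vector, and 6 carry the label Hnrnpk_SAM and belong to 2 lines, of which SAM1 and SAM2 have 3 libraries apiece. In the synergistic activator mediator (SAM) system, an inactive Cas9 and a guide RNA carry transcriptional activators to a chosen gene, here *Hnrnpk*, which encodes an RNA-binding protein. By the study's methods the cells were wild type MEFs transduced with 2 lentiviral vectors that carry the SAM components and selected with blasticidin and hygromycin, and the surviving cells were used (whether clones were picked is not stated). The labels give no treatment, and they do not tell which guide was used in SAM1 and which in SAM2. Controls are named empty vector in the labels, while the methods give the guide vector with a nontargeting guide as the control. The sequence printed in the methods for that guide is the same as the one printed for an *Hnrnpk* guide. Whether libraries of a line came from separate cultures is not stated, and p-values then measure only the spread between these libraries, which may be technical.

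The targeted gene was not called as higher in either line. *Hnrnpk* had 25058, 26099 and 26164 normalized counts in the libraries labelled Empty vector, 24102, 24045 and 23619 in those labelled SAM1, and 26608, 26859 and 26221 in those labelled SAM2. It was lower in SAM1 (by -0.11 on the log2 scale, limma adjusted p = 0.00252) and, for SAM2 against empty vector, the log2 difference was 0.04 (adjusted p = 0.159 from limma). All SAM1 libraries lay below those of both other groups. On this scale, RNA of the targeted gene therefore goes against the label SAM1. The fall was small, and the summed normalized counts of the libraries differed as well. They were 48686625 to 49041969 in empty vector, 43909125 to 44464106 in SAM1 and 45390276 to 45489906 in SAM2. Other scalings were not examined for *Hnrnpk*, so its sign in SAM1 is given only for the deposited normalization. Every direction given here is a difference between libraries as they are labelled. Depth was 41759636 to 49026626 reads on the listed genes in the 8 libraries whose reads could be recovered. All 14 fibroblast markers on a list of defining genes were in the table, with summed normalized counts of 1196437 to 1298286 in empty vector, 955700 to 1015360 in SAM1 and 1308648 to 1351069 in SAM2. Several lists of other cell types moved as well. The sum of the 4 of 9 epithelial markers in the table was 2247 to 2427 in empty vector, 7209 to 7734 in SAM1 and 2832 to 2918 in SAM2. For 5 of 8 endothelial markers it was 428 to 468, 4922 to 5343 and 907 to 977, and for 4 of 8 neural markers 3188 to 3415, 9481 to 9605 and 8831 to 9037. The macrophage list had 5 of 10 markers (1493 to 1529, 2544 to 2693 and 1757 to 1777) and the myoblast list 2 of 7 (70 to 108, 135 to 170 and 236 to 263), with *Ptprc*, *Adgre1*, *Myod1*, *Pax7*, *Epcam*, *Krt5*, *Sox10* and *Cldn5* not listed. Their part in the results below was not tested, and in bulk RNA fewer cells of a type and less RNA per cell cannot be told apart.

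In the mitochondrial pathway of apoptosis, BH3-only proteins such as BIM (*Bcl2l11*) bind and neutralize the prosurvival proteins BCL-2 (*Bcl2*), BCL-XL (*Bcl2l1*) and MCL-1 (*Mcl1*). BAK (*Bak1*) is then free to open the outer mitochondrial membrane, and the released cytochrome c assembles APAF1 and caspase-9 into the apoptosome, which switches on the executioner caspases. Caspase-8 starts the death receptor pathway, and XIAP blocks caspase-9 and the executioner caspases. Fibroblasts carry both pathways, and their BCL-2 family genes are known to respond to growth factor signals and to p53.

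The gene of the proapoptotic protein BIM was the member that moved most. *Bcl2l11* was about 2 times as high in both lines as in empty vector, while its partners changed less: *Bcl2* and *Bak1* were higher in both lines, and *Mcl1*, *Casp8* and *Casp9* were lower in both. The falls of *Mcl1* and *Casp9* in SAM2 were small (-0.13 and -0.12 on the log2 scale). That of *Casp9* was called in 8 of 18 alternative settings, and that of *Mcl1* was not called under quantile normalization. *Apaf1* rose and *Bcl2l1* fell in SAM2, and *Xiap* fell in SAM1, each with a tested difference between the lines. With the 6 libraries labelled Hnrnpk_SAM against the 3 empty vector libraries, 3 of the 9 members rose, 3 fell and 3 were not called at a limma adjusted p below 0.05. Over all 15184 genes, 53.9% were called in this comparison, 26.8% as higher and 27.0% as lower, so a count of 6 of 9 lies near the background of the table. The median log2 fold change was -0.07 over the members and 0.01 over all genes.

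**Figure D1:**
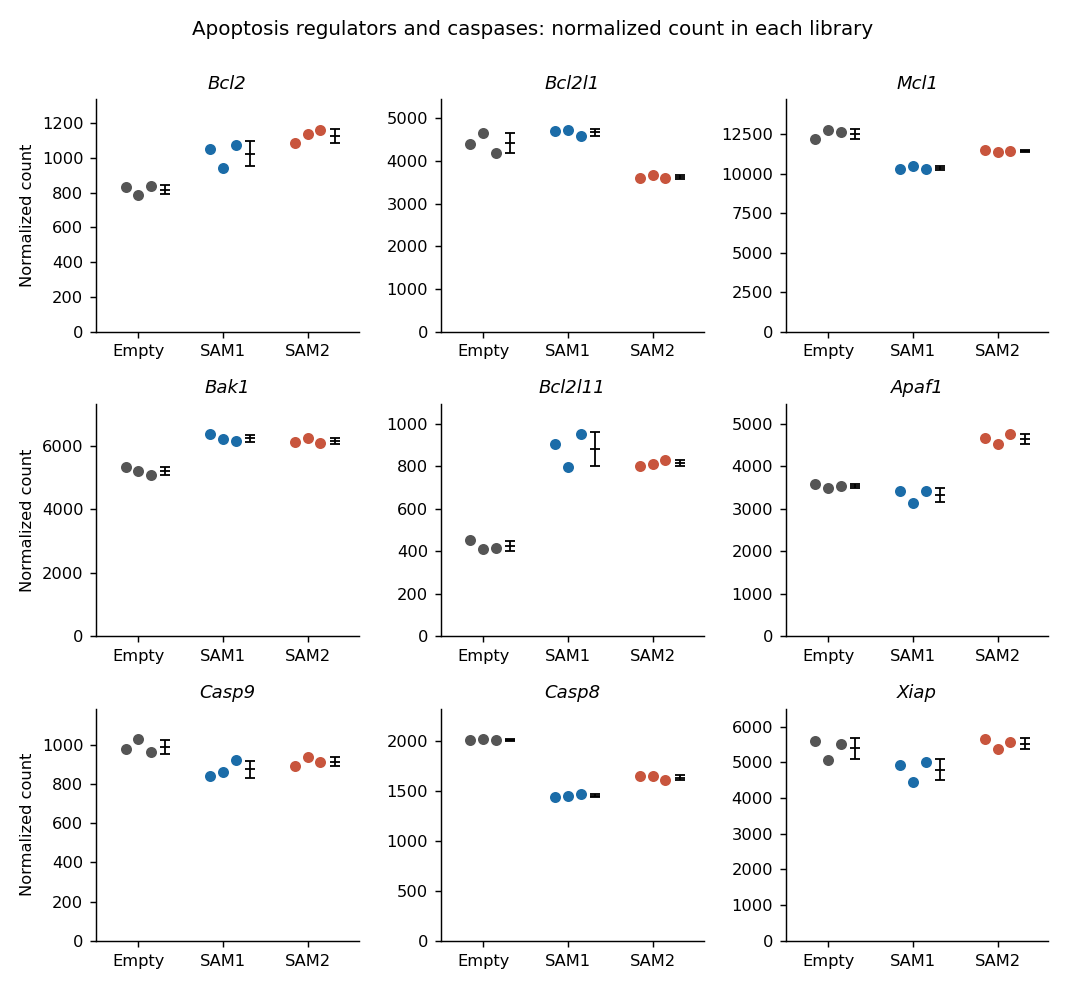
Normalized counts (y axis, from 0) of the 9 members in each of the 9 libraries (x axis, by label). Points are libraries, and the black bar beside each group is its mean with the SD (n = 3). *Bcl2l11* lies between 795 and 950.2 in the 6 libraries labelled Hnrnpk_SAM and between 409.7 and 453 in empty vector, while *Apaf1* and *Bcl2l1* separate SAM2 from the other groups.

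*Bcl2l11* (ENSMUSG00000027381.19, chromosome 2, 127967958 to 128004476, plus strand of GRCm39) encodes BIM, a BH3-only protein that binds all the main prosurvival proteins. It had 453, 409.7 and 417 normalized counts in empty vector, 903, 795 and 950.2 in SAM1, and 801, 811 and 830.4 in SAM2. All 6 libraries of the lines lay above all 3 of empty vector, with a wide gap. The mean rose from 427 ± 23.3 (SD, n = 3) to 883 ± 79.6 (SD, n = 3) for SAM1 and to 814 ± 14.9 (SD, n = 3) for SAM2. On the log2(value + 1) scale, the difference was 1.04 in SAM1 (95% interval 0.90 to 1.19, adjusted p = 7.41e-09 from limma) and 0.93 in SAM2 (0.79 to 1.07, adjusted p = 3.07e-08 from limma). For the pooled lines the value was 0.99 with a standard error of 0.0721 (limma adjusted p = 3.78e-06), larger in size than that of 85.4% of all genes. The lines were not called apart (SAM2 minus SAM1 -0.11, 95% interval -0.25 to 0.03, adjusted p = 0.155 from limma). Without SAM1 replicate 2, the lowest of its group, that difference was -0.19 (adjusted p = 0.0146 from limma), and under upper-quartile scaling -0.17 (adjusted p = 0.0358 from limma). *Bcl2l11* shares 69 exonic bases with *Gm74510* on the same strand and 126 with *Gm75592* on the opposite strand, 0.682% and 1.25% of its merged exons.

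*Bcl2* and *Bak1* rose with it in both lines, although they act on opposite sides of the pathway. *Bcl2* (ENSMUSG00000057329.9, chromosome 1, 106465908 to 106642060, minus strand) encodes the founding prosurvival protein of the family. Its normalized counts were 829.7, 787 and 836 in empty vector, 1049.8, 941 and 1076 in SAM1, and 1083, 1136 and 1161 in SAM2. Every library of the lines was above every empty vector library. The log2 difference was 0.32 in SAM1 (95% interval 0.20 to 0.44, adjusted p = 0.000132 from limma), 0.46 in SAM2 (0.34 to 0.58, adjusted p = 5.11e-06 from limma) and 0.39 with the lines pooled (adjusted p = 0.000905 from limma). SAM2 was above SAM1 by 0.14 (adjusted p = 0.0381 from limma). This call was lost without SAM1 replicate 2 (0.08, adjusted p = 0.164 from limma), SAM2 replicate 2 (0.14, adjusted p = 0.0962 from limma) or SAM2 replicate 3 (0.12, adjusted p = 0.13 from limma). It was also lost under quantile normalization (0.11, adjusted p = 0.0907 from limma), upper-quartile scaling (0.09, adjusted p = 0.166 from limma) and a prior without a trend (0.14, adjusted p = 0.0675 from limma).

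*Bak1* (ENSMUSG00000057789.16, chromosome 17, 27238784 to 27247983, minus strand) encodes BAK, a pore-forming effector that sits in the outer mitochondrial membrane. It had 5319.7, 5208 and 5069 normalized counts in empty vector, 6361, 6206 and 6152 in SAM1, and 6109, 6245 and 6103 in SAM2. The groups of the lines overlapped each other and lay wholly above empty vector. Its rise was nearly equal in the lines, 0.26 on the log2 scale in SAM1 (95% interval 0.20 to 0.33, adjusted p = 2.26e-06 from limma) and 0.24 in SAM2 (0.18 to 0.31, adjusted p = 5.64e-06 from limma). SAM2 minus SAM1 was -0.02, with an interval from -0.08 to 0.04 (adjusted p = 0.563 from limma). It was -0.07 and called under quantile normalization (adjusted p = 0.0476 from limma) and upper-quartile scaling (adjusted p = 0.0416 from limma). Pooled, *Bak1* rose by 0.25 (adjusted p = 0.000117 from limma), and 18.2% of its merged exons overlap *Ggnbp1* and 7.35% overlap *Gm50253* on the opposite strand. Those genes had mean normalized counts of 51.7 and 22.5, far below *Bak1*, and the strand setting of the counting is not stated.

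*Mcl1* (ENSMUSG00000038612.18, chromosome 3, 95566026 to 95570487, plus strand) encodes a short-lived prosurvival protein and was lower in both lines. Its normalized counts were 12177, 12780.3 and 12634 in empty vector, 10302, 10513 and 10272 in SAM1, and 11489, 11401 and 11463 in SAM2. The 3 groups did not overlap, with SAM1 lowest and SAM2 between the others. It fell by 0.27 on the log2 scale in SAM1 (adjusted p = 7.04e-07 from limma), by 0.13 in SAM2 (adjusted p = 0.000729 from limma) and by 0.20 with the lines pooled (adjusted p = 0.0079 from limma). The lines differed by 0.14 (95% interval 0.09 to 0.20, adjusted p = 0.000448 from limma). Under quantile normalization the pooled value was -0.08 (adjusted p = 0.133 from limma) and that of SAM2 was -0.03 (adjusted p = 0.332 from limma), while SAM1 stayed called.

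*Bcl2l1* (ENSMUSG00000007659.20, chromosome 2, 152622582 to 152673655, minus strand) encodes prosurvival BCL-XL and, by splicing, the shorter proapoptotic BCL-XS, which counts per gene cannot tell apart. It had 4384, 4656 and 4193 normalized counts in empty vector, 4704, 4725 and 4572 in SAM1, and 3609, 3678 and 3592 in SAM2. SAM2 lay below the other groups, which overlapped each other. In SAM2 it fell by 0.28 on the log2 scale (95% interval -0.36 to -0.20, adjusted p = 1.5e-05 from limma), and SAM2 minus SAM1 was -0.36 (adjusted p = 2.41e-06 from limma). SAM1 against empty vector was 0.08 (adjusted p = 0.0596 from limma), and 0.12 (adjusted p = 0.00453 from limma) without Empty replicate 2. It was called as higher in SAM1 under quantile normalization (0.17, adjusted p = 0.00103 from limma) and upper-quartile scaling (0.14, adjusted p = 0.00397 from limma). Pooled over lines that moved apart, *Bcl2l1* was not called (-0.10, adjusted p = 0.472 from limma).

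**Figure D2:**
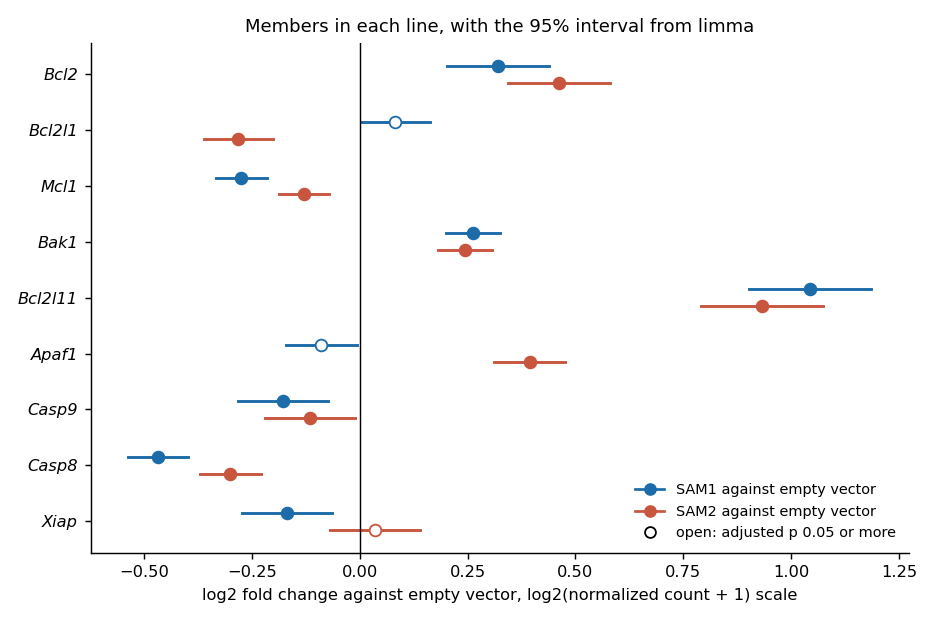
The log2 fold change against empty vector (x axis, log2(normalized count + 1) scale) of each member (y axis), in SAM1 (blue) and SAM2 (red). Points are estimates and lines their 95% intervals from limma, with open points where the adjusted p is 0.05 or more. *Bcl2l11* lies near 1 in both lines, and *Apaf1*, *Bcl2l1* and *Xiap* lie on opposite sides of 0.

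The apoptosome genes did not move together. *Apaf1* (ENSMUSG00000019979.14, chromosome 10, 90825173 to 90918686, minus strand) encodes the scaffold of the apoptosome. Its normalized counts were 3578.5, 3476 and 3539 in empty vector, 3416, 3129 and 3424 in SAM1, and 4667, 4510.0 and 4746 in SAM2. SAM2 was far above the other groups, and SAM1 lay just below empty vector without overlap. *Apaf1* rose by 0.39 in SAM2 (95% interval 0.31 to 0.48, adjusted p = 7.73e-07 from limma), and the lines differed by 0.48 (0.40 to 0.57, adjusted p = 2.04e-07 from limma), more than in 74.4% of all genes. For SAM1 the value was -0.09 (adjusted p = 0.0507 from limma), and it passed the threshold without Empty replicate 2 (-0.10, adjusted p = 0.0465 from limma), SAM1 replicate 1 (-0.11, adjusted p = 0.0395 from limma) or SAM1 replicate 3 (-0.11, adjusted p = 0.0335 from limma). The pooled value of 0.15 was not called (adjusted p = 0.391 from limma).

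*Casp9* (ENSMUSG00000028914.15, chromosome 4, 141520923 to 141546508, plus strand) encodes the initiator caspase that the apoptosome activates. It had 977, 1029 and 960.3 normalized counts in empty vector, 840.0, 860.1 and 924 in SAM1, and 890.1, 937 and 910.2 in SAM2. The lines lay below empty vector by a small margin and overlapped each other. It fell by 0.18 on the log2 scale in SAM1 (adjusted p = 0.00482 from limma), by 0.12 in SAM2 (adjusted p = 0.0479 from limma) and by 0.15 pooled (adjusted p = 0.0354 from limma), and the lines were not called apart (0.06, 95% interval -0.04 to 0.17, adjusted p = 0.286 from limma). The pooled call was lost with any empty vector library left out (adjusted p = 0.0732, 0.141 and 0.0572 from limma for replicates 1, 2 and 3), without SAM1 replicates 1 or 2 (0.0622 and 0.0561) and without SAM2 replicate 1 (0.0575). The SAM2 call was lost without Empty replicates 1 or 2 (adjusted p = 0.0604 and 0.156 from limma), without SAM1 replicate 1 (0.0502) and without any SAM2 library (0.148, 0.0514 and 0.102). Of the members called as lower, *Casp9* thus had the least stable call, and that of SAM1 held under all 18 alternatives (adjusted p 0.00107 to 0.0384).

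*Casp8* (ENSMUSG00000026029.16, chromosome 1, 58834375 to 58886665, plus strand) encodes the initiator caspase of the death receptor pathway. Its normalized counts were 2009, 2025 and 2012 in empty vector, 1445, 1454 and 1475 in SAM1, and 1649, 1654 and 1609.8 in SAM2. The groups were tight and did not overlap, with SAM1 lowest. *Casp8* fell by 0.47 in SAM1 (95% interval -0.54 to -0.40, adjusted p = 2.07e-08 from limma), by 0.30 in SAM2 (-0.37 to -0.23, adjusted p = 2.17e-06 from limma) and by 0.38 pooled (adjusted p = 0.000381 from limma). The lines differed by 0.17 (adjusted p = 0.000583 from limma).

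*Xiap* (ENSMUSG00000025860.17, chromosome X, 41148481 to 41198541, plus strand) encodes an inhibitor that binds caspases directly. It had 5604, 5052 and 5518 normalized counts in empty vector, 4927, 4459.5 and 5001 in SAM1, and 5655, 5361 and 5554 in SAM2. SAM1 lay below the other groups, which overlapped each other, and replicate 2 was the lowest library of each group. *Xiap* fell by 0.17 in SAM1 (adjusted p = 0.00635 from limma), a call that was lost under quantile normalization (-0.07, adjusted p = 0.18 from limma). SAM2 against empty vector was 0.04, with a 95% interval from -0.07 to 0.14 (adjusted p = 0.521 from limma), and the lines differed by 0.21 (0.10 to 0.31, adjusted p = 0.00251 from limma). The pooled value was -0.07 (adjusted p = 0.488 from limma).

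Counted by line, 3 members rose and 4 fell in SAM1, and 4 rose and 4 fell in SAM2. Among all genes, 74.3% were called in SAM1 (37.3% higher, 36.9% lower) and 70.5% in SAM2 (35.2% higher, 35.3% lower). Between the lines, 5 members were higher in SAM2, *Casp8*, *Apaf1*, *Bcl2*, *Mcl1* and *Xiap*, and *Bcl2l1* was lower, against 60.3% of all genes (31.1% higher, 29.2% lower). The lines share the empty vector libraries, so their values are set side by side and no overlap between them is read as a result. For 6 members all libraries of both lines lay on 1 side of the empty vector libraries, 3 above and 3 below, as they did for 53.1% of all genes. The members were therefore called about as often as genes of this table in general, and they differ from one another mainly in direction and size.

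Levels of different genes were compared per kilobase of merged exons. In empty vector, *Mcl1* was highest at 3589 ± 90.2 (SD, n = 3) normalized counts per kilobase, followed by *Bak1* at 2159.9 ± 52.2 and *Bcl2l1* at 859 ± 45.4. *Casp8* (654 ± 2.79), *Xiap* (546 ± 30.03) and *Apaf1* (333 ± 4.89) came next, and *Casp9* (120.3 ± 4.39), *Bcl2* (88.7 ± 2.92) and *Bcl2l11* (42.2 ± 2.30) were lowest. *Mcl1*, *Bak1* and *Bcl2l1* kept the top ranks in both lines. *Bcl2l11* stayed lowest there at 87.3 ± 7.87 in SAM1 and 80.5 ± 1.47 in SAM2, although its level had about doubled. In SAM1, *Xiap* and *Casp8* (485 ± 29.7 and 473 ± 5.00) and *Bcl2* and *Casp9* (111 ± 7.77 and 106 ± 5.32) lay within 1 SD of each other, while the other neighbours in this order were further apart than that in all 3 groups. With the length of the canonical transcript in place of the merged exons, a setting chosen after seeing the data, 21 of 27 levels moved by more than 1 SD and the order changed. *Xiap* was then above *Casp8* in empty vector (807 against 735), *Apaf1* was above *Casp8* in SAM2 (699 against 597), and *Casp9* was at 254 in empty vector. By that length *Bcl2* and not *Bcl2l11* was lowest in both lines (141 against 175 in SAM1, 155 against 161 in SAM2).

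Ratios within a library do not depend on the scaling between libraries, and they set the proapoptotic members against the prosurvival ones. Counts of *Bcl2l11* were 52.2% ± 2.38 (SD, n = 3) of those of *Bcl2* in empty vector, 86.2% ± 1.93 in SAM1 and 72.3% ± 1.44 in SAM2. The groups did not overlap, and the same held against both other prosurvival genes. Relative to *Bcl2l1* the share of *Bcl2l11* was 9.69% ± 0.801, 18.9% ± 1.99 and 22.5% ± 0.578, and relative to *Mcl1* it was 3.41% ± 0.275, 8.52% ± 0.869 and 7.11% ± 0.136. The log2 ratio of *Bcl2l11* over *Mcl1* was -4.75, -4.96 and -4.92 in empty vector, -3.51, -3.73 and -3.43 in SAM1, and -3.84, -3.81 and -3.79 in SAM2, a difference of 1.32 in SAM1 and 1.06 in SAM2. *Bak1* moved less against its inhibitors. Its log2 ratio over *Bcl2l1* rose from 0.24 ± 0.07 (SD, n = 3) to 0.42 ± 0.02 in SAM1 and 0.76 in SAM2, and over *Mcl1* from -1.27 ± 0.07 to -0.73 ± 0.03 and -0.90 ± 0.02. Over *Bcl2* it was 2.67 ± 0.06 in empty vector and 2.61 ± 0.10 in SAM1, within the spread of the libraries, and 2.45 ± 0.05 in SAM2. These ratios are descriptions with no test, and they compare counts and not molecules, since the genes differ in length.

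**Figure D3:**
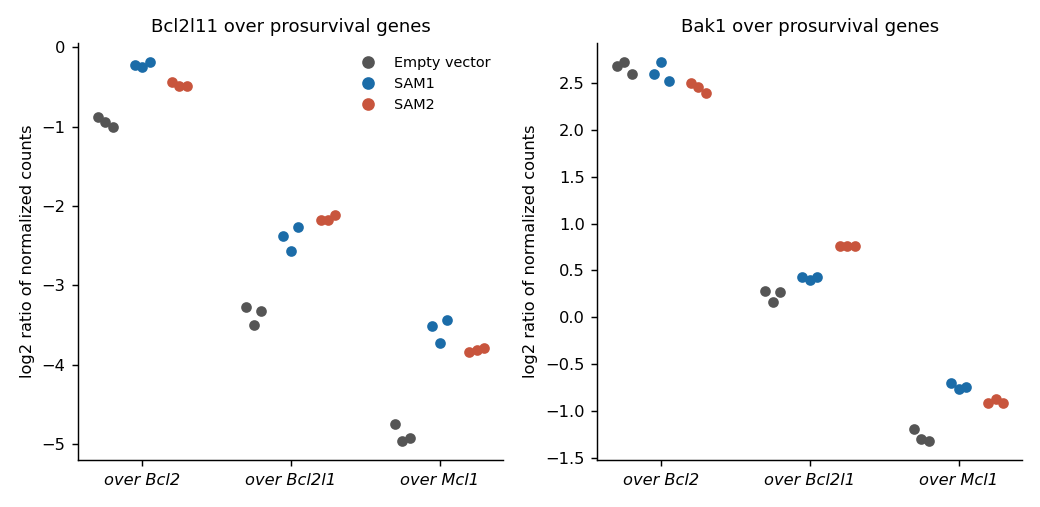
The log2 ratio of normalized counts within each library (y axis) of *Bcl2l11* (left) and *Bak1* (right) over each of the prosurvival genes *Bcl2*, *Bcl2l1* and *Mcl1* (x axis). Points are libraries, coloured by label. The ratios of *Bcl2l11* lie higher in all 6 libraries of the lines than in empty vector, and those of *Bak1* over *Bcl2* overlap between empty vector and SAM1.

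Promoter sequences are shown for the 3 members that rose in both lines, to see what letters they share, and for *Apaf1*, whose lines differed most. Each is the 250 bases before the start of the canonical transcript in GRCm39, written 5′ to 3′ on the strand of the gene. Capitals mark matches on either strand to the FOXO word TGTTTAC, the CCAAT box or the GC box GGGCGG.
Bcl2l11, chr2:127967708-127967957, plus strand: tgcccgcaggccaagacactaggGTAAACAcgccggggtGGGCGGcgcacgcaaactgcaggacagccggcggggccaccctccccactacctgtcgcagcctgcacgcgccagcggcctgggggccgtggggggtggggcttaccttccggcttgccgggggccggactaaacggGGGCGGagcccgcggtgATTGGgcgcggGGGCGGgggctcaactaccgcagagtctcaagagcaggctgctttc
Bcl2, chr1:106642061-106642310, minus strand: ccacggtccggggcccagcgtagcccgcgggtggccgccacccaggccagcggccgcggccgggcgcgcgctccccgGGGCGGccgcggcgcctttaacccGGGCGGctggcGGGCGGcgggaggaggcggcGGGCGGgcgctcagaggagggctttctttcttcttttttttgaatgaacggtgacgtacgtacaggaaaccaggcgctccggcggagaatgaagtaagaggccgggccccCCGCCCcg
Bak1, chr17:27247984-27248233, minus strand: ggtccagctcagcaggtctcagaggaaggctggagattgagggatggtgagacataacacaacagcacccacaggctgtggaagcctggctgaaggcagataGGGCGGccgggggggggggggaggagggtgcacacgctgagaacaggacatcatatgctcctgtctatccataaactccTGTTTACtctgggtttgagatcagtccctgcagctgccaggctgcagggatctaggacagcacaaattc
Apaf1, chr10:90918687-90918936, minus strand: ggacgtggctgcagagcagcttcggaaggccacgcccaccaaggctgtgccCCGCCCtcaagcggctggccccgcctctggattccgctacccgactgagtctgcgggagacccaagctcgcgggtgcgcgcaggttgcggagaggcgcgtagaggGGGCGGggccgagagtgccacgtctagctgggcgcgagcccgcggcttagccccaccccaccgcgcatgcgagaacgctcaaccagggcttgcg

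The FOXO word, to which factors known to activate *Bcl2l11* when growth factors are withdrawn can bind, stood 227 to 221 bases before the start of *Bcl2l11* and 69 to 63 bases before that of *Bak1*. No other member had it, against 2.41% of the 14790 promoters read. A GC box was found in 8 of the 9 member promoters, all but *Casp8*, and in 46.7% of all promoters. The CCAAT box was in the promoters of *Bcl2l11* and *Bcl2l1*, and in 35.6% of all. Neither the E2F words TTTCCCGC and TTTGGCGC (2.15% of promoters) nor the p53 binding unit (6.41%) was found in any of the 9, which says only that these letters are not in these windows. None of the motifs searched overlaps another in the printed sequences. *Bcl2*, *Bcl2l11* and *Apaf1* have promoters rich in G and C (74%, 72% and 71.6%, against a median of 56.4%), with 36, 24 and 28 CpG pairs, while that of *Bak1* has 57.2% and 3. These matches are descriptions and no sites of binding, and of the motifs searched the 3 members that rose in both lines shared only the GC box.

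Beyond the 9 members, 38 other genes of an apoptosis list of 53 were in the table. With the lines pooled, 7 of these 38 rose, 11 fell and 20 were not called, and their median log2 fold change was -0.09. These calls make up 47.4% of the 38, against 53.9% of all genes. *Fasl*, *Tnfsf10*, *Bcl2a1a*, *Bcl2a1b*, *Bcl2a1d* and *Bcl2l10* were not in the table. In SAM1, 10 rose and 17 fell (71.1%, against 74.3% of all genes), and in SAM2, 13 rose and 13 fell (68.4%, against 70.5%), so the list was called about as often as the table in general.

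Of the 8 genes of the death receptor set in the table, 5 were lower and 1 higher in the pooled comparison, in which 27.0% of all genes were lower. The difference from that share was not tested. *Fas*, the receptor of FAS ligand, had 186, 196 and 193 normalized counts in empty vector, 84.5, 63.2 and 71.3 in SAM1, and 94.0, 81.6 and 80.7 in SAM2, and it fell by 1.28 on the log2 scale (standard error 0.128, adjusted p = 2.9e-05 from limma). *Cflar* encodes cFLIP, which holds caspase-8 inactive at the receptor. It fell from 3977 ± 91.2 (SD, n = 3) to 2629 ± 159 in SAM1 and 2688 ± 13.0 in SAM2 (-0.58, adjusted p = 4.16e-06 from limma). The caspase-8 adaptor *Fadd*, *Tnfrsf21* and *Ripk1* were the other 3, named here after their values were seen. *Tnfrsf10b*, which encodes the TRAIL receptor, was the gene that rose, from 950.0 ± 47.2 (SD, n = 3) to 1548 ± 11.3 and 1778 ± 9.87 (0.80, adjusted p = 1.06e-05 from limma).

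Genes that act downstream of the members moved in both directions. The genes of proteins that executioner caspases cut moved in opposite directions, with *Parp1*, a DNA repair enzyme, at 0.21 (adjusted p = 0.00111 from limma) and *Dffa*, the inhibitor of the apoptotic nuclease, at -0.28 (adjusted p = 0.0225 from limma). The call of *Dffa* was lost without Empty replicate 1 (-0.28, adjusted p = 0.0644 from limma) or 3 (-0.25, adjusted p = 0.0883 from limma). *Diablo*, whose protein SMAC binds XIAP, fell by 0.61 (adjusted p = 0.000184 from limma), and the protease gene *Htra2* by 0.49 (adjusted p = 0.00187 from limma). The 6 genes of their set held 1 that was higher, 2 lower and 3 not called, while 26.8% of all genes were higher and 27.0% lower. Of the 3 initiator caspases, *Casp8* and *Casp9* were lower and *Casp2* was at 0.05 (adjusted p = 0.473 from limma).

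Among the other relatives of the members, the prosurvival gene *Bcl2l2*, which encodes BCL-W, rose by 0.54 (adjusted p = 0.000275 from limma). Of the 8 BH3-only genes, *Bcl2l11* was the one called in the pooled comparison, but others were called by line. In SAM1, 4 were lower, among them *Hrk* (-1.21, adjusted p = 0.015 from limma), *Bik* (-0.76, adjusted p = 0.00811 from limma) and *Bbc3* (-0.31, adjusted p = 0.00025 from limma). *Hrk* was near the floor, with 11.3, 5.25 and 11.7 normalized counts in empty vector and 1.90, 5.92 and 2.93 in SAM1. *Bik* was low as well, with 27.5, 45.4 and 29.3 in SAM1. In SAM2, 3 were higher, among them *Bcl2l11* and *Bid* (0.29, adjusted p = 2.38e-05 from limma). These BH3-only genes are named after their values were seen, and 5 of the 8 were higher in SAM2 than in SAM1. Over all genes, 53.9% were called pooled, 36.9% were lower in SAM1 and 35.2% higher in SAM2. Between the lines, 31.1% of all genes were higher in SAM2. Differences from these shares were not tested. Of the 3 pore-forming effectors, *Bak1* was the one called pooled. In SAM1, 2 were higher (37.3% of all genes were), and in SAM2, 2 were higher and 1 lower (35.2% and 35.3% of all genes). Of the 5 inhibitor of apoptosis genes, *Birc5*, which encodes survivin, a protein of mitosis as well, rose by 0.83 (adjusted p = 0.000247 from limma) and *Birc2*, which encodes cIAP1, fell by 0.37 (adjusted p = 0.0147 from limma, and 0.0641 without Empty replicate 3). *Perp*, a p53 target that also serves in desmosomes, had the widest difference of the list, from 4523 ± 231 (SD, n = 3) to 547 ± 23.0 in SAM1 and 415 ± 16.2 in SAM2 (-3.24, adjusted p = 7.3e-08 from limma). The nuclease gene *Aen* fell by 0.40 (adjusted p = 1.67e-05 from limma). Of the 4 p53-linked death genes in the set of *Perp* and *Aen*, 2 were lower, 1 higher and 1 not called with the lines pooled. Among all genes 27.0% were lower and 26.8% higher.

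**Figure D4:**
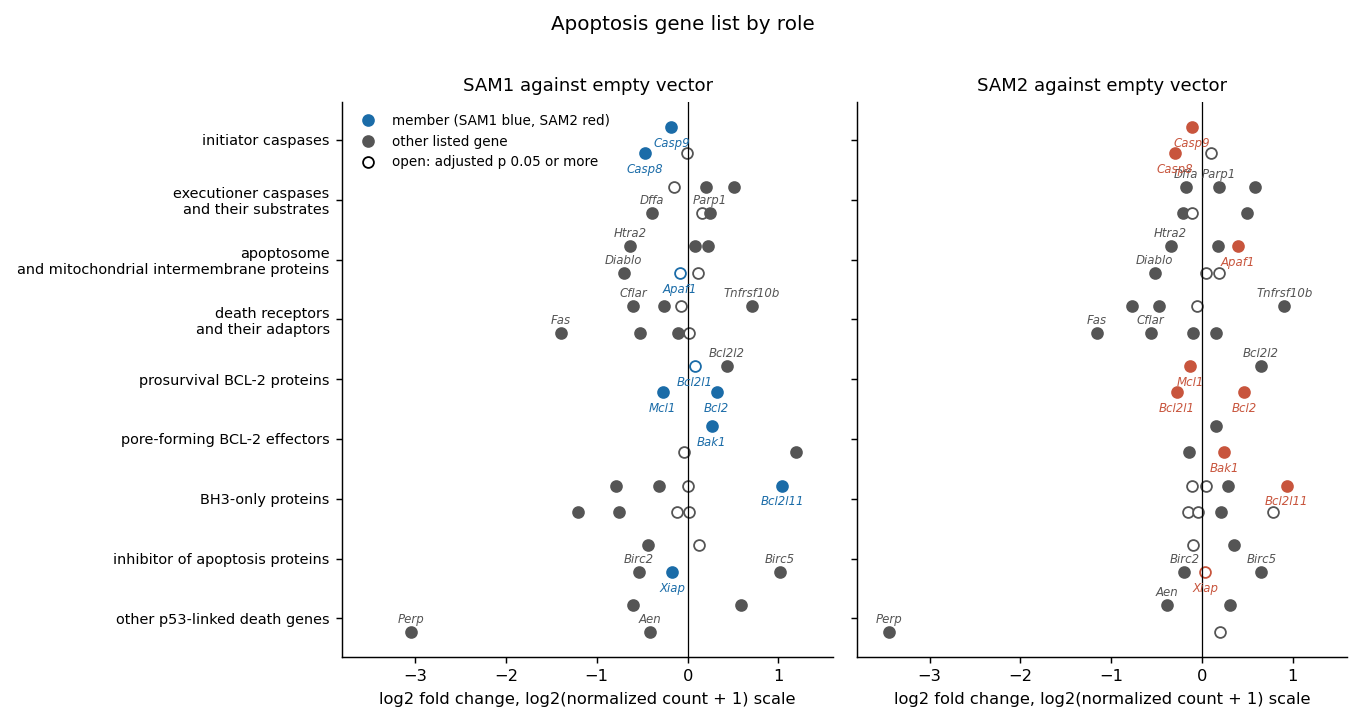
The log2 fold change against empty vector (x axis, log2(normalized count + 1) scale) of the 47 genes of the apoptosis list in the table, by role (y axis), in SAM1 (left) and SAM2 (right). Coloured points are the members and grey points the other listed genes, open where the limma adjusted p is 0.05 or more, and the members and the genes described in the text are named. *Bcl2l11* stands to the right of the other BH3-only genes in both lines, and *Perp* lies below -3.

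Position on the chromosome went along with the values of some members. *Casp8* and *Cflar* lie 36327 bases apart on chromosome 1, and the genes around them were lower too. Of the 43 other genes within 2 Mb of *Casp8*, 29 were lower and 3 higher with the lines pooled. In that comparison 27.0% of all genes were lower and 26.8% higher. The median log2 fold change of these 43 neighbours was -0.53 (-0.60 in SAM1, -0.46 in SAM2). *Casp8*, at -0.38, was thus less reduced than the median of its neighbours, and 67.4% of them had lower values. *Bcl2l11*, at 0.99, was above the median of 0.20 over its 44 neighbours, 81.8% of which had lower values. It lay within their spread, as the rest rose more, up to 3.15 for *Dusp2*. Of these neighbours, 17 were higher and 3 lower with the lines pooled, against 26.8% and 27.0% of all genes. Pooled medians around the other members ran from -0.17 over 27 genes for *Casp9*, close to its own -0.15, to 0.12 over 95 genes for *Bak1*. For *Casp9* this closeness did not hold in SAM1, where it was at -0.18 and its neighbours had a median of 0.01. In SAM2 both were at -0.12. *Bcl2* (0.39 against 0.08 over 10 genes) and *Mcl1* (-0.20 against 0.10 over 84 genes) differed from theirs, and only 3 neighbours were available for *Xiap*. On chromosome 14, *Tnfrsf10b* and *Bcl2l2* had neighbours with medians of 0.84 and 0.70, at or above their own values of 0.80 and 0.54. That shift was not only local, since the 512 other genes of chromosome 14 had a pooled median of 0.55, against 0.01 over all genes. For chromosome 1, which holds *Casp8*, the median was -0.18 over 864 genes. The part of the neighbourhood in these results was not tested.

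**Figure D5:**
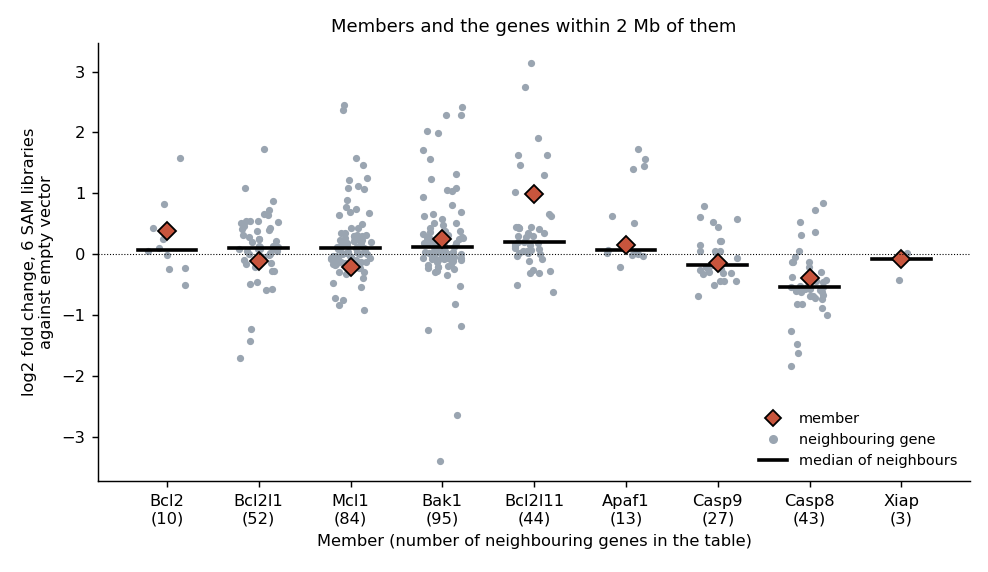
The pooled log2 fold change (y axis, 6 libraries labelled Hnrnpk_SAM against empty vector) of each member (red diamond) and of the other genes of the table within 2 Mb of it (grey points, number under each name), with their median as a black bar. The neighbours of *Casp8* center on -0.53, below *Casp8* itself, and *Bcl2l11* lies well above the median of its neighbours.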

How the data were processed

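PolyA+ RNA of 9 MEF libraries was sequenced in pairs of reads. Per the submitters' notes and the methods, the authors checked reads with FastQC (0.11.0), aligned them to GRCm39 (TopHat2 with Bowtie2, up to 20 hits per read), obtained gene counts with HTSeq on Gencode annotation, and divided these by DESeq2 size factors. The deposited values are this signal, normalized counts of 15184 genes above 10 in at least 30% of libraries, and not raw counts. Counts of genes with close copies could depend on how such multiple hits were counted.

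Groups were taken from the titles. The log2(value + 1) was fitted with limma (3.58.1, empirical Bayes with a trend, R 4.3.3) over all genes, with 2 groups (6 libraries against 3) or 3 groups, and two-sided p-values were adjusted by Benjamini-Hochberg over all 15184 genes at a threshold of 0.05. This scale understates the change of low genes. In 8 libraries 100% of values lay within 0.1 of whole reads, and edgeR (4.0.16) and DESeq2 (1.42.0) were run on these reads without SAM2 replicate 1. The 7 pairs of libraries within a group that could be compared differed by more than sampling noise (chi-square per gene 1.45 to 13.2). The GENCODE vM39 annotation of GRCm39 gave positions, lengths and promoters. It held 14791 of the names at 1 place, 68 at several and lacked 325. Tests were tried on simulated data with far fewer changed genes than here and no difference between the lines. This checked the code, and not how well the tests perform on these data.

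Members and lists were chosen with earlier results of these data known. Named are all members, *Hnrnpk*, and in each set of the apoptosis list up to 3 other genes past the threshold in the pooled comparison with all 6 libraries on 1 side of empty vector, by smallest adjusted p, and listed genes that are not in the table. Exceptions are marked. The epithelial, endothelial, neural, macrophage and myoblast marker lists stand for cells an embryo culture could hold. Alternatives were other pseudocounts (0.5 and 10), a stricter filter, quantile and upper-quartile scaling, a prior without a trend, the replicate block, the count tests and each library left out in turn. Genes below the authors' filter and the individual reads were not analysed here. Results for some listed genes are not reported here.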

Additional observations from a re-analysis of the deposited data

Results flagged for a closer look

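For *Cflar*, 1 of the 6 libraries labelled Hnrnpk_SAM stood apart: SAM1 replicate 2 had 2447 normalized counts while the other 5 had 2673 to 2744, and its gap was 0.761 of the range of the 6. Chance marks about 1 in 20 such groups, and 22 genes were examined in this way.

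The lines differed by the limma test of the difference itself (adjusted p below 0.05) in 6 members and 8 other named genes. As SAM2 minus SAM1 on the log2 scale, the values were 0.168 for *Casp8*, 0.483 for *Apaf1*, 0.142 for *Bcl2*, -0.364 for *Bcl2l1*, 0.144 for *Mcl1* and 0.205 for *Xiap*. Among the other genes of the list they were 0.212 for *Dffa*, 0.180 for *Diablo*, 0.286 for *Htra2*, 0.200 for *Tnfrsf10b*, 0.211 for *Bcl2l2*, -0.363 for *Birc5*, 0.341 for *Birc2* and -0.397 for *Perp*. *Apaf1* and *Bcl2l1* had the widest differences of the members, and of the 8 other genes all but *Birc5* and *Perp* were higher in SAM2. The call of *Diablo* was lost without SAM1 replicate 1 or 3 or SAM2 replicate 1 or 3 (limma adjusted p = 0.0614, 0.113, 0.0661 and 0.0894), that of *Dffa* without SAM1 replicate 2 (limma adjusted p = 0.0581), and that of *Bcl2* without SAM1 replicate 2 or SAM2 replicate 2 or 3 (limma adjusted p = 0.164, 0.0962 and 0.13). The call of *Diablo* was also lost under upper-quartile scaling (limma adjusted p = 0.118) and in the count tests (adjusted p = 0.0757 from edgeR and 0.121 from DESeq2). That of *Bcl2* was also lost under quantile normalization, upper-quartile scaling and a prior without a trend (limma adjusted p = 0.0907, 0.166 and 0.0675). Since 60.3% of all genes differed between the lines, such differences are common in this table.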

How the results depend on the processing

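Each fit was repeated under 18 alternatives, 9 of which leave out 1 library. The number of members called was 5 to 6 with the lines pooled (6 as reported), 7 to 9 in SAM1 (7), 7 to 8 in SAM2 (8) and 5 to 7 between the lines (6). Counts of members and of all genes called stayed within 1.5 times of those reported in all 144 comparisons of counts. Of 648 repeated values of members, 604 kept their direction and side of the threshold, 29 were no longer called, 13 became called and 2 turned. The 2 that turned were *Xiap* pooled under quantile normalization (0.0052) and *Xiap* in SAM2 without Empty replicate 2 (-0.0100), neither called (with 1 library left out, *Xiap* in SAM2 ranged from -0.0100 to 0.0647). Of 936 values of other named genes, 905 kept both and 7 turned, all in uncalled differences between the lines: *Cflar* under quantile normalization (-0.0313), upper-quartile scaling (-0.02005) and without SAM1 replicate 2 (-0.0169, of a range to 0.0658), and *Aen* under quantile normalization (-0.0226), upper-quartile scaling (-0.0330) and without SAM1 replicate 2 or SAM2 replicate 3 (-0.00223 and -0.00219, of a range to 0.0379). The cause was not tested. *Casp9* was called in 8 of 18 alternatives pooled and in 8 of 18 in SAM2. Under quantile normalization *Mcl1* was no longer called pooled or in SAM2 (-0.08 and -0.03), nor *Xiap* in SAM1 (-0.07), while *Bcl2l1* became called as higher in SAM1 (0.17, and 0.14 under upper-quartile scaling).

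Same-numbered libraries deviated together weakly (mean r 0.0531, 9 pairs, lowest 0.00237, 3 above 0.1). Those with different numbers had a mean r of -0.0266 (18 pairs, 0 above 0.1). The main fits did not pair libraries by number, and the replicate block was run as an alternative. With the block, 7343 genes were called pooled (8179 without it), 11631 in SAM1 (11275), 11095 in SAM2 (10699) and 9812 between the lines (9162). The block changed the calls of *Casp9* pooled (adjusted p = 0.059 from limma) and of *Apaf1* and *Bcl2l1* in SAM1 (adjusted p = 0.0121 and 0.0186 from limma). In a window of 5 Mb, 16 of 27 neighbour medians of members moved by 1 SD of the libraries or more. That of *Casp8* was -0.45 pooled. Per-gene counts limit what can be said of isoforms, protein and caspase activity, and SAM2 replicate 1 had no recovered depth.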

Other observations

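Of the 38 other genes of the apoptosis list, 11 differed between the lines without being called in the pooled comparison, 9 higher and 2 lower in SAM2. SAM2 minus SAM1 ran from -1.04 to 1.99 on the log2 scale, the latter for *Hrk*, which had few counts. Among all genes, called pooled or not, 31.1% were higher and 29.2% lower in SAM2 than in SAM1. The listed genes named here were chosen after their values were seen. *Bok*, a relative of *Bak1*, had 1126, 1226 and 1138 normalized counts in empty vector, 2588, 2928 and 2482 in SAM1 and 1296, 1315 and 1268 in SAM2. It rose by 1.19 in SAM1 and by 0.15 in SAM2 (adjusted p = 4.14e-10 and 0.0266 from limma), and SAM2 minus SAM1 was -1.04 (adjusted p = 5.1e-09 from limma). The caspase gene *Casp6* rose by 0.20 in SAM1 (adjusted p = 0.00217 from limma) and fell by 0.21 in SAM2 (adjusted p = 0.0016 from limma), with SAM2 minus SAM1 at -0.41 (adjusted p = 9.14e-06 from limma). *Trp53inp1*, a p53 target, likewise moved in opposite directions: it fell by 0.60 in SAM1 (adjusted p = 1.19e-07 from limma) and rose by 0.30 in SAM2 (adjusted p = 9.75e-05 from limma), with SAM2 minus SAM1 at 0.90 (adjusted p = 5.53e-09 from limma).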
